A study of Mus musculus with 4 samples.

Results

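The 9 genes described here are 8 components of the inflammasome, Nlrp3, Aim2, Nlrp1b, P2rx7, Pycard, Casp1, Casp4 and Gsdmd, together with Txnip. They were chosen by name, and all 9 were found among the 55421 Ensembl gene identifiers of the count tables through their GRCm38 symbols. RNA came from material labelled as islet macrophages, from wild-type mice of the inbred strain C57BL/6. The mice were on a high-fat diet (HFD, 2 libraries), which makes mice obese and insulin resistant, or on normal chow (NCD, 2 libraries). The sources used here give no age, sex or length of feeding, and the isolated islets were frozen before total RNA was extracted. Separate animals are not named for the 2 libraries of a diet, and p-values therefore reflect the spread between libraries alone, which may be technical.

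Inflammasomes are cytosolic complexes that innate immune cells, macrophages above all, build when a sensor protein meets a danger signal. The sensor recruits the adaptor ASC, which clusters the protease caspase-1, and caspase-1 then cleaves pro-IL-1β, pro-IL-18 and the pore-forming protein gasdermin D. In macrophages the sensor NLRP3 is normally scarce until an inflammatory stimulus primes its transcription, and islet IL-1β is known to impair insulin secretion. TXNIP binds and inhibits thioredoxin, is induced by glucose in beta cells, and has been described as a partner of NLRP3.

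The libraries held 56740720 to 64490097 counts, and 21563 genes had enough counts to be tested. The label was set against 12 macrophage markers, whose summed level was 834 and 817 CPM (counts scaled to a common library total) in HFD and 1051 and 1015 CPM in NCD. Markers of beta cells summed to 13620 and 14210 CPM in HFD and 17460 and 17950 CPM in NCD, and those of alpha cells to 13270 and 13900 CPM in HFD and 9329 and 9781 CPM in NCD. Both endocrine sums stood above the macrophage sum in each library. By the edgeR test described below, 7 of 9 beta cell markers fell while 3 of 5 alpha cell markers rose. Of all genes tested, 14.5% fell and 17.9% rose. Defining macrophage markers such as Adgre1, Csf1r and Lyz2 were counted in all 4 libraries. Levels of single genes below are CPM after TMM scaling between libraries. In bulk RNA of this kind, fewer cells of a type and less RNA per cell cannot be told apart.

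Of the 9 genes, 7 were higher in HFD than in NCD at a Benjamini-Hochberg adjusted p under 0.05 by edgeR's quasi-likelihood test over all genes, where 17.9% of all genes tested were higher and 32.4% were called in either direction. None was called lower by that test (14.5% of all genes tested were), while Nlrp1b had an unadjusted p under 0.05 and was called lower by DESeq2. The genes that rose were Nlrp3, Casp1, Casp4, Txnip, Gsdmd, Aim2 and P2rx7, in order of fold change, and those that did not pass were Pycard and Nlrp1b. The median log2 change of the 9 genes was 1.20, against 0.0026 for all genes tested. The diets did not overlap in any of the 9 genes, which was also the case for 67.7% of the genes tested.

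**Figure D1:**
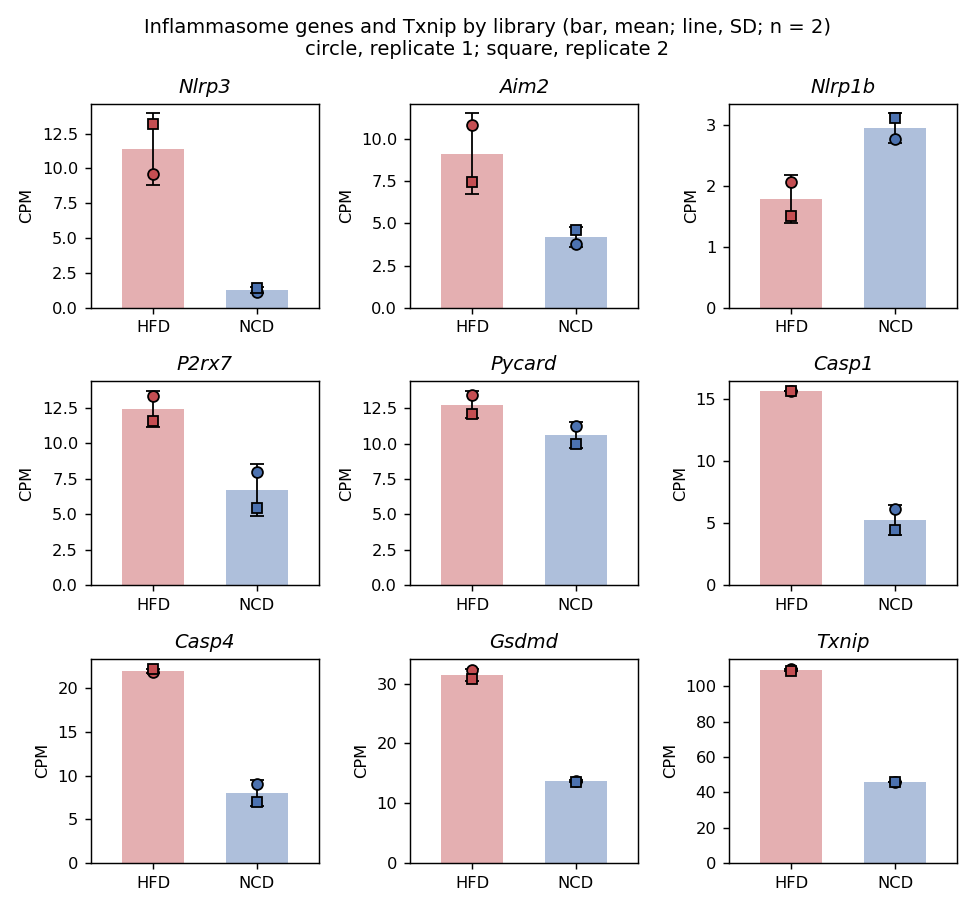
CPM of the 9 genes in each library, with HFD left of NCD; bars are means, lines SD over n = 2 libraries, circles replicate 1 and squares replicate 2, on linear axes from 0. Nlrp3 stands at 9.59 and 13.2 CPM in HFD against 1.12 and 1.43 CPM in NCD, while the Pycard libraries of the diets lie close together.

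The upstream sequences of 3 genes are shown, Txnip for its tandem motif and Casp4 and Nlrp3 as the members whose windows held NF-κB sites. The sequences are the 250 bases before the annotated start, 5′ to 3′, from RefSeq on GRCm38.p6, in lower case with motif matches in capitals. In Txnip the capitals mark a pair of CCAAT boxes and a tandem pair of CACGAG, and in Casp4 and Nlrp3 they mark NF-κB sites, with a CCAAT box in Nlrp3. Casp4 and Nlrp3 have 2 windows each in the table, and 1 with matches is shown for each.
Txnip, chr3:96557707-96557956, plus strand: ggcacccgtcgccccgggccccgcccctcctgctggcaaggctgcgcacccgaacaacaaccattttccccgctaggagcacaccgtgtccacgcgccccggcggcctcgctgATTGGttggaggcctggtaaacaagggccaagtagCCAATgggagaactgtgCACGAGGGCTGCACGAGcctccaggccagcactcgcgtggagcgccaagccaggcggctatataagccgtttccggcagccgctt
Casp4, chr9:5308599-5308848, plus strand: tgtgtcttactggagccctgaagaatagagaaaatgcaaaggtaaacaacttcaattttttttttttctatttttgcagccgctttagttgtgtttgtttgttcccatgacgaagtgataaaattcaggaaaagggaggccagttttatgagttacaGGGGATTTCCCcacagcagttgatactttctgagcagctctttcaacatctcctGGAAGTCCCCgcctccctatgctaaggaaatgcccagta
Nlrp3, chr11:59541319-59541568, plus strand: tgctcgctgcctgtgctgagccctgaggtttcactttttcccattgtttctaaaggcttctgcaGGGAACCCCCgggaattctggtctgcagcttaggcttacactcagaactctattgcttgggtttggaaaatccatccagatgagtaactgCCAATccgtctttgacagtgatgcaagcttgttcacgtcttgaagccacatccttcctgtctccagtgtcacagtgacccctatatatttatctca

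Motifs were searched on both strands in windows reaching from 250 bases before to 50 bases after the start. The RefSeq table held windows for 8 of the 9 genes, Gsdmd being the one without. NF-κB sites, searched by name with their degenerate consensus, were in windows of Casp4 and Nlrp3 and in 8.46% of all 32851 windows. Casp4 had 3 matches in each of its windows, of which 2 overlap in the run GGGGATTTCCC. Its windows overlap and hold the same sites, and the Nlrp3 window not shown held no match to any motif. The E-box CACGTG was in the Casp1 window and in 7.15% of all windows. CCAAT was in windows of Nlrp3, Aim2 and Txnip and in 37.4% of all windows. The AP-1 motif TGANTCA was in a P2rx7 window and in 7.81% of all windows, and the interferon-stimulated response element, searched by name, was in none of the members' windows and in 3.44% of all. A pair of CACGAG runs, 5 bases apart, lies 85 to 69 bases before the Txnip start, and no other window of the 32851 held it. It was searched after the Txnip sequence had been read, and it has the form of the carbohydrate response element known from this promoter, to which the glucose-sensing factors ChREBP and MondoA bind. Such matches describe the sequences and show no binding.

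Of the 3 sensors, Nlrp3 and Aim2 rose and Nlrp1b did not pass. Nlrp3, encoding the sensor that responds to potassium efflux, crystals and lysosomal damage (chr11:59541568-59566956), stood at 9.59 and 13.2 CPM in HFD, against 1.12 and 1.43 CPM in NCD. Both HFD libraries lay far above both NCD libraries, with an 8.94-fold difference (log2 change 3.16 ± 0.25, SE; edgeR adjusted p = 0.000671). The counts behind these levels were 594 and 748 in HFD and 72 and 89 in NCD.

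Aim2, encoding the sensor of cytosolic double-stranded DNA (chr1:173350879-173466040), stood at 10.8 and 7.43 CPM in HFD, against 3.78 and 4.60 CPM in NCD. The HFD libraries were apart from each other but both above NCD, with a 2.18-fold rise (log2 change 1.12 ± 0.24, SE; edgeR adjusted p = 0.0182). That call was lost without HFD replicate 1 and without NCD replicate 1 (edgeR adjusted p = 0.0645 and 0.0711).

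Nlrp1b, encoding the sensor that bacterial proteases such as anthrax lethal factor activate in susceptible mouse strains (chr11:71153102-71230733), ran the other way. It stood at 2.07 and 1.501 CPM in HFD, against 2.78 and 3.12 CPM in NCD. Both HFD libraries were below both NCD libraries, but the difference did not pass (log2 change -0.72, 95% interval -1.41 to -0.03; edgeR adjusted p = 0.104, and 0.0423 by DESeq2). Its counts were 85 to 194 per library, the lowest of the 9 genes apart from Nlrp3 in NCD.

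P2rx7 encodes the ATP-gated channel through which extracellular ATP drives potassium out of the cell, a trigger of NLRP3 (chr5:122643911-122691432). It stood at 13.3 and 11.6 CPM in HFD, against 8.02 and 5.44 CPM in NCD, a 1.85-fold rise (log2 change 0.89 ± 0.22, SE; edgeR adjusted p = 0.0301). The diets did not overlap, but the NCD libraries were well apart, and the call was lost without HFD replicate 1, HFD replicate 2 or NCD replicate 2 (edgeR adjusted p = 0.106, 0.0601 and 0.0695).

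Pycard, encoding the adaptor ASC that links the sensors to caspase-1 (chr7:127989708-127993867), stood at 13.4 and 12.1 CPM in HFD, against 11.3 and 9.94 CPM in NCD. Both HFD libraries were above both NCD libraries, with means of 12.75 CPM (SD 0.97) in HFD and 10.6 CPM (SD 0.94) in NCD. The difference did not pass (log2 change 0.27, 95% interval -0.07 to 0.60; edgeR adjusted p = 0.201), and the interval holds both slight falls and moderate rises. Of its exonic bases, 12.8% also belong to Gm45205 on the opposite strand, which had 10 to 30 counts per library.

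The proteases and the pore former rose together. Casp1, encoding caspase-1 (chr9:5298517-5307265), stood at 15.7 and 15.6 CPM in HFD, against 6.12 and 4.44 CPM in NCD, a 2.96-fold rise (log2 change 1.57 ± 0.19, SE; edgeR adjusted p = 0.00261). Casp4, its neighbour on chromosome 9, encodes the mouse caspase-11 that binds lipopolysaccharide in the cytosol (chr9:5308828-5336783). It stood at 21.9 and 22.2 CPM in HFD, against 9.07 and 6.99 CPM in NCD, a 2.74-fold rise (log2 change 1.46 ± 0.16, SE; edgeR adjusted p = 0.00180). For both caspase genes the HFD libraries nearly coincided, and NCD replicate 1 was above NCD replicate 2.

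Gsdmd, encoding gasdermin D, which these caspases cleave into a membrane pore (chr15:75862327-75867408), stood at 32.2 and 30.8 CPM in HFD, against 13.8 and 13.6 CPM in NCD. The spread within each diet was small beside the 2.30-fold rise (log2 change 1.20 ± 0.089, SE; edgeR adjusted p = 0.0005395). Neither Casp1, Casp4 nor Gsdmd shares exonic bases with another gene, or a stretch of at least 100 bases at 95% identity with another gene's transcripts.

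Txnip, encoding the thioredoxin-binding α-arrestin (chr3:96557957-96561883), stood at 109.9 and 109 CPM in HFD, against 45.7 and 45.99 CPM in NCD. The replicates nearly coincided in each diet, and the 2.385-fold rise had the smallest SE of the 9 genes (log2 change 1.25 ± 0.055, SE; edgeR adjusted p = 0.000124). Of its exonic bases, 19.4% also belong to the antisense gene Gm15441, which had 15 and 85 counts in HFD and 74 and 27 counts in NCD, against 6809 and 6162 and 2950 and 2860 counts for Txnip. No source used here says whether counting used the strand, so reads over the shared bases cannot be told apart.

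**Figure D2:**
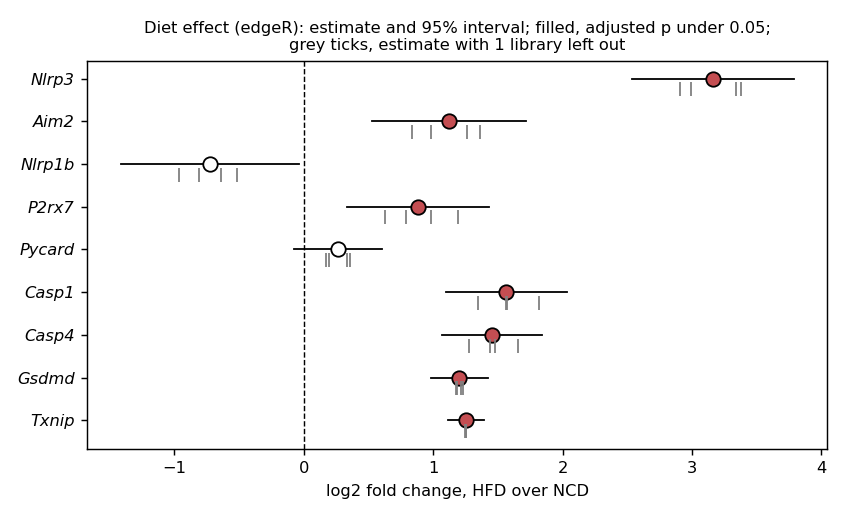
Log2 fold change of each gene, HFD over NCD, from edgeR, with its 95% interval; filled circles passed at an adjusted p under 0.05, and grey ticks are the estimates with 1 library left out. Nlrp3 lies at 3.16, Pycard and Nlrp1b are the open circles at 0.27 and -0.72, and no tick crosses 0.

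Levels of different genes were compared as TPM, which divides counts by the annotated exon length. In HFD the order from the top was Txnip at 107 and 104 TPM, Gsdmd at 41.1 and 38.6, Casp1 at 31.7 and 31.1 and Casp4 at 17.9 in both libraries. Pycard followed at 10.7 and 9.46 TPM, Nlrp3 at 7.17 and 9.71, Aim2 at 9.37 and 6.33, P2rx7 at 6.76 and 5.77 and Nlrp1b at 0.994 and 0.710. In HFD each neighbouring pair from Pycard down to P2rx7 overlapped between libraries, so their order is not resolved.

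In NCD the order was Txnip at 44.2 and 45.7 TPM, Gsdmd at 17.5 and 17.7, Casp1 at 12.3 and 9.20 and Pycard at 8.95 and 8.12. Casp4 followed at 7.37 and 5.85 TPM, Aim2 at 3.26 and 4.08, P2rx7 at 4.05 and 2.83, Nlrp1b at 1.33 and 1.54 and Nlrp3 at 0.830 and 1.10. Only Aim2 and P2rx7 overlapped as neighbours there. Nlrp3 was thus the lowest of the 9 genes in both NCD libraries, whereas in HFD it ranked 7 in replicate 1 and 5 in replicate 2. Within the tested genes of a library, Nlrp3 stood above 43.4% and 48.9% of them in HFD and above 18.0% and 21.5% in NCD, whereas Pycard stood above 50.2% and 48.5% in HFD and 49.2% and 47.2% in NCD. The exon length spans all annotated transcripts, 3800 bases for Pycard against 1497 for Casp1, so the order depends on the annotation.

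**Figure D3:**
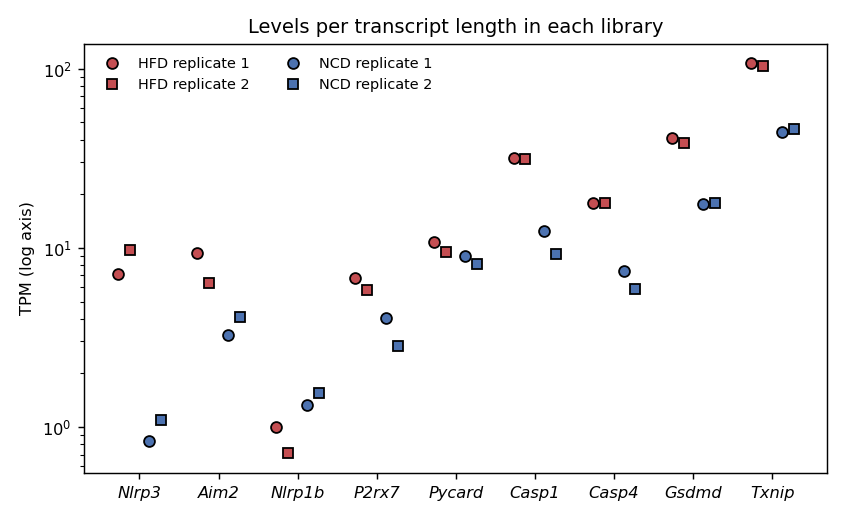
TPM of the 9 genes in each library on a log axis, HFD symbols left of NCD symbols, circles replicate 1 and squares replicate 2. Txnip is highest in each library, and Nlrp3 is lowest in NCD at 0.830 and 1.10 TPM but not in HFD at 7.17 and 9.71 TPM.

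The 7 genes that rose were higher in HFD relative to the macrophage markers of the same library. This is no separate result, since the summed markers were lower in HFD. Of 12 such markers, 2 rose, 6 fell and 3 did not pass, and Cd163 had too few counts to be tested. Among all genes tested, 17.9% rose and 14.5% fell. Adgre1, encoding F4/80, stood at 26.4 and 24.3 CPM in HFD and 29.5 and 31.9 CPM in NCD and did not pass, though DESeq2 called it lower (adjusted p = 0.0180). Csf1r, the receptor of the growth factor CSF1, rose to 101 and 99.9 CPM in HFD, against 90.1 and 82.9 CPM in NCD, a call lost without any 1 of the 4 libraries. Lyz2, encoding lysozyme, fell to 279.6 and 275 CPM in HFD, against 381 and 372 CPM in NCD. It gave 17313 and 15578 of 51555 and 46336 marker counts in HFD, and 24588 and 23148 of 67767 and 63092 in NCD. Per 1000 counts of the 12 markers, Nlrp3 had 11.5 and 16.1 counts in HFD and 1.06 and 1.41 counts in NCD. Casp1 had 18.8 and 19.1 counts in HFD and 5.83 and 4.38 counts in NCD on that scale, and Pycard 16.1 and 14.7 in HFD and 10.7 and 9.80 in NCD. Against this denominator, which was smaller in HFD, the Pycard libraries of the diets were further apart (1.505-fold) than against library size.

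Txnip was set against beta cell markers as well, since beta cells are a known source of it. The 2 beta cell markers that did not pass were Ins1 and Slc2a2. Most of the summed beta cell marker counts came from Ins2, Iapp and Ins1 (514440, 214631 and 94746 of 842175 in HFD replicate 1). Of these, Ins2 and Iapp were lower in HFD. Per 1000 beta cell marker counts, Txnip had 8.09 and 7.64 counts in HFD and 2.62 and 2.56 counts in NCD, a 3.03-fold difference of means. Such ratios were not tested, since an exact two-sided permutation test of 2 libraries against 2 cannot go below p = 0.333.

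**Figure D4:**
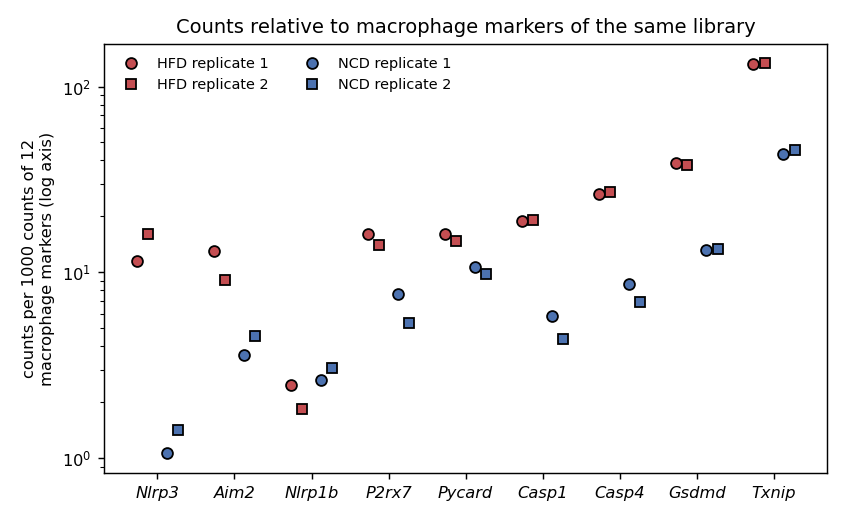
Counts of each gene per 1000 summed counts of 12 macrophage markers of the same library, on a log axis, HFD symbols left of NCD symbols, circles replicate 1 and squares replicate 2. Nlrp3 has the widest gap between diets, at 11.5 and 16.1 in HFD against 1.06 and 1.41 in NCD, and Nlrp1b has lower values in HFD.

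Markers of other cell types moved in the same libraries. The background for their counts is 17.9% higher and 14.5% lower among all genes tested. B cell markers rose in 6 of 6 genes, with sums of 3674 and 3716 CPM in HFD and 552 and 550 CPM in NCD, and T and NK cell markers in 6 of 7 tested genes, with sums of 51.1 and 44.6 CPM in HFD and 8.54 and 8.85 CPM in NCD. Monocyte markers rose in 4 of 5 tested genes, with sums of 98.8 and 103 CPM in HFD and 15.8 and 16.2 CPM in NCD. Most of the monocyte sum came from 1 gene, Vcan, at 64.8 and 69.2 CPM in HFD and 8.82 and 9.54 CPM in NCD. Dendritic cell markers rose in 3 of 4 tested genes, with sums of 136.5 and 115 CPM in HFD and 18.4 and 17.5 CPM in NCD, and the dendritic cell marker Cd209a had no count. Ccr7 gave the largest part of the dendritic sum, at 103 and 81.6 CPM in HFD and 8.14 and 7.30 CPM in NCD. Fibroblast markers rose in 5 of 5 genes, with sums of 991 and 1022 CPM in HFD and 63.0 and 64.1 CPM in NCD. Acinar cell markers rose in 6 of 6 genes, with sums of 2199 and 2445 CPM in HFD and 320 and 332 CPM in NCD. Ductal cell markers split, with 3 higher and 1 lower of 5 and sums of 293 and 314 CPM in HFD and 467 and 475 CPM in NCD. Most of each ductal sum came from Krt7, the marker that fell, at 231 and 250 CPM in HFD and 442 and 448 CPM in NCD. Krt19, Sox9 and Muc1 rose, so the ductal sum does not give the direction of most of its markers. Endothelial markers also split, with 3 higher and 2 lower of 5. Of 8 neutrophil markers 6, S100a8 among them, had no count in any library, and the others summed to at most 0.229 CPM. The part of these cell types in the changes of the 9 genes was not tested.

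Other genes of the pathway were described from 7 lists with 88 genes, of which 78 had enough counts to be tested. Of these, 38 were higher and 3 lower in HFD, with a median log2 change of 0.46, where 17.9% of all genes tested were higher and 14.5% lower. The same shares are the background for the counts of each list. Of the 10 others, 5 had no count in any library, namely Nlrp12, Trim31, Gsdmc, Gsdmc2 and Gsdmc3.

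Other inflammasome sensors split in direction. Of 8 tested of 11, 3 rose, 1 fell and 4 did not pass, with a median log2 change of 0.497. Mefv, encoding the sensor pyrin, stood at 3.67 and 3.32 CPM in HFD and 1.12 and 0.884 CPM in NCD (log2 change 1.801 ± 0.27, SE; edgeR adjusted p = 0.00575). Nlrc4, the partner of the NAIP proteins that sense bacterial flagellin and secretion systems, stood at 6.56 and 4.75 CPM in HFD and 3.49 and 2.85 CPM in NCD (edgeR adjusted p = 0.0483). The Nlrc4 call was lost in 5 of its alternatives, leaving out HFD replicate 1, NCD replicate 1 or NCD replicate 2 among them (edgeR adjusted p up to 0.199). Nlrp10 rose to 1.10 and 1.59 CPM in HFD, against 0.295 and 0.0965 CPM in NCD, a call lost without HFD replicate 1 or 2.

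Naip2, encoding a sensor of bacterial secretion system rods, was the sensor that fell, to 51.1 and 49.1 CPM in HFD, against 71.3 and 72.1 CPM in NCD (log2 change -0.52 ± 0.061, SE; edgeR adjusted p = 0.00248). The Naip genes share sequence, with 86.9% of the longest Naip5 transcript and 13.7% of that of Naip2 at 95% identity or more to transcripts of other genes. Reads of this family may be split between its copies, so its values are uncertain.

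Of 13 tested caspases, gasdermins and genes of necrotic death, out of 18, 7 rose, 1 fell and 5 did not pass (median log2 change 0.455). Casp12, a member of the inflammatory caspase family with Casp1 and Casp4, stood at 12.3 and 15.2 CPM in HFD and 2.20 and 3.39 CPM in NCD (log2 change 2.30 ± 0.25, SE; edgeR adjusted p = 0.00203). Ripk3 and Mlkl, the kinase and the pore former of necroptosis, both rose. Ripk3 stood at 24.2 and 28.2 CPM in HFD and 5.60 and 8.73 CPM in NCD, and Mlkl at 28.3 and 30.0 CPM in HFD and 9.72 and 8.65 CPM in NCD (edgeR adjusted p = 0.00297 and 0.000406). Casp8, the initiator caspase that can also cleave gasdermin D, rose 1.96-fold, and Cflar, its inhibitory homologue, rose 1.68-fold.

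Gsdma, a gasdermin best known from skin, was the gene that fell, to 80.6 and 80.5 CPM in HFD, against 101.6 and 111 CPM in NCD (edgeR adjusted p = 0.00714). Gsdme, the gasdermin that caspase-3 cleaves, stood at 10.1 and 9.98 CPM in HFD and 7.19 and 7.45 CPM in NCD (edgeR adjusted p = 0.0458), a call lost without any 1 of the 4 libraries (edgeR adjusted p up to 0.156). Ninj1, whose product ruptures the membrane after gasdermin D pores form, stood at 73.8 and 89.2 CPM in HFD and 115 and 92.0 CPM in NCD and did not pass (edgeR adjusted p = 0.117). Without NCD replicate 2 Ninj1 was called lower (edgeR adjusted p = 0.0412).

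Of the cytokine substrates, Il1b and Il1a rose and Il18 did not pass. Il1b, encoding pro-IL-1β, stood at 62.9 and 62.5 CPM in HFD and 6.42 and 6.79 CPM in NCD, a 9.49-fold rise. Il18, encoding pro-IL-18, stood at 3.88 and 2.83 CPM in HFD and 3.95 and 3.59 CPM in NCD, with overlapping diets (edgeR adjusted p = 0.645). Il1a rose 4.00-fold and Il1rn, encoding the IL-1 receptor antagonist, 2.97-fold (edgeR adjusted p = 0.00193 and 0.00112). Il18bp, the secreted IL-18 antagonist, stood at 22.6 and 21.1 CPM in HFD and 22.5 and 31.0 CPM in NCD and did not pass, though without NCD replicate 1 it was called lower (edgeR adjusted p = 0.0331). In this list 3 of 5 genes rose, with a median log2 change of 1.57.

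Of 17 tested regulators of assembly, out of 18, 11 rose and 6 did not pass (median log2 change 1.00). Serpinb1a, encoding an inhibitor of neutrophil serine proteases that also restrains inflammatory caspases, stood at 28.5 CPM in both HFD libraries and 2.23 and 2.40 CPM in NCD, a 12.3-fold rise. Pstpip1, the pyrin-binding adaptor, rose 4.47-fold, and Zbp1, a sensor of Z-form nucleic acids, 3.61-fold (edgeR adjusted p = 0.00149 and 0.000470). The interferon-induced guanylate-binding protein genes Gbp2 and Gbp5, whose products open bacterial membranes to caspase-11 and AIM2, rose 3.73-fold and 3.16-fold. Trim30a, which restrains NLRP3, and Sting1, the adaptor of cytosolic DNA sensing, rose 2.30-fold and 2.37-fold, and Irf1 rose 1.72-fold. Cgas, the enzyme upstream of Sting1, rose 1.85-fold, a call lost without any 1 of the 4 libraries (edgeR adjusted p up to 0.124).

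Nek7, the kinase that bridges NLRP3 subunits, stood at 126 and 121 CPM in HFD and at 128.5 and 41.8 CPM in NCD. NCD replicate 2 stood apart from the other libraries for this gene, and the difference did not pass (edgeR adjusted p = 0.461). Without NCD replicate 1 the log2 change was 1.56 and was called (edgeR adjusted p = 0.0005536), and without NCD replicate 2 it was -0.07. Dpp9, the protease that holds NLRP1B inactive, stood at 131 and 130.2 CPM in HFD and 154 and 142.5 CPM in NCD and did not pass (edgeR adjusted p = 0.0618, and 0.00673 to 0.228 over its alternatives, among which DESeq2 and the fit without NCD replicate 2 called it lower).

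Priming receptors and adaptors rose in 6 of 14 genes, and 8 did not pass (median log2 change 0.31). Toll-like receptors switch on Nlrp3 and Il1b transcription through NF-κB, and the list also holds the interferon receptor genes Ifnar1 and Ifnar2. Cd14 and Tlr4, which together recognise lipopolysaccharide, rose 3.22-fold and 2.08-fold (edgeR adjusted p = 0.000341 and 0.00134). Myd88, their shared adaptor, rose 1.29-fold, and Nfkb1, encoding the p50 precursor of NF-κB, rose 1.49-fold. Irak4 rose 1.35-fold, a call lost without any 1 of the 4 libraries (edgeR adjusted p up to 0.151). Tlr2, the receptor of bacterial lipoproteins, stood at 71.1 and 77.0 CPM in HFD and 68.5 and 73.2 CPM in NCD (edgeR adjusted p = 0.552).

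In the list of ATP and potassium signalling all 9 genes were tested, 5 rose and 4 did not pass (median log2 change 0.995). Among the 5 is Hvcn1, whose values are uncertain because 56.3% of its longest transcript resembles transcripts of Tctn1. Nt5e, encoding the ectoenzyme CD73 that turns AMP into adenosine, stood at 10.8 and 11.7 CPM in HFD and 1.07 and 1.27 CPM in NCD, a 9.59-fold rise (edgeR adjusted p = 0.000258). The potassium channel genes Kcnn4 and Kcnk6 rose 3.39-fold and 1.99-fold, and Panx1, encoding a channel that releases ATP, rose 2.33-fold (edgeR adjusted p = 0.00119, 0.00275 and 0.00117). P2rx4, the purinergic channel paralogous to P2rx7, stood at 51.7 and 49.2 CPM in HFD and 46.4 and 44.5 CPM in NCD and did not pass (edgeR adjusted p = 0.159).

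Around Txnip, 3 of 12 tested genes of the thioredoxin system and the α-arrestins rose, 1 fell and 8 did not pass (median log2 change 0.0965), counts near the 17.9% higher and 14.5% lower among all genes tested. Txn1, encoding the thioredoxin that TXNIP inhibits, stood at 132 and 137 CPM in HFD and 76.5 and 79.1 CPM in NCD, a 1.73-fold rise (edgeR adjusted p = 0.000436). Its values are uncertain because 29.3% of its longest transcript resembles the pseudogene Txn-ps1. Txnrd1, the cytosolic thioredoxin reductase, rose 1.36-fold (edgeR adjusted p = 0.00488).

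Arrdc4, the paralogue of Txnip that glucose also induces, stood at 53.7 and 52.0 CPM in HFD and 27.3 and 29.9 CPM in NCD, a 1.85-fold rise (edgeR adjusted p = 0.000966). Arrdc3, another α-arrestin, stood at 92.3 and 97.6 CPM in HFD and 93.8 and 88.0 CPM in NCD and did not pass (edgeR adjusted p = 0.506). Mlxipl, encoding ChREBP, fell to 42.2 and 40.3 CPM in HFD, against 64.6 and 65.9 CPM in NCD (log2 change -0.66 ± 0.064, SE; edgeR adjusted p = 0.00129). Mlxip, encoding MondoA, stood at 89.5 and 77.8 CPM in HFD and 78.5 and 75.9 CPM in NCD and did not pass (edgeR adjusted p = 0.351). The part of either factor in the Txnip rise was not tested.

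**Figure D5:**
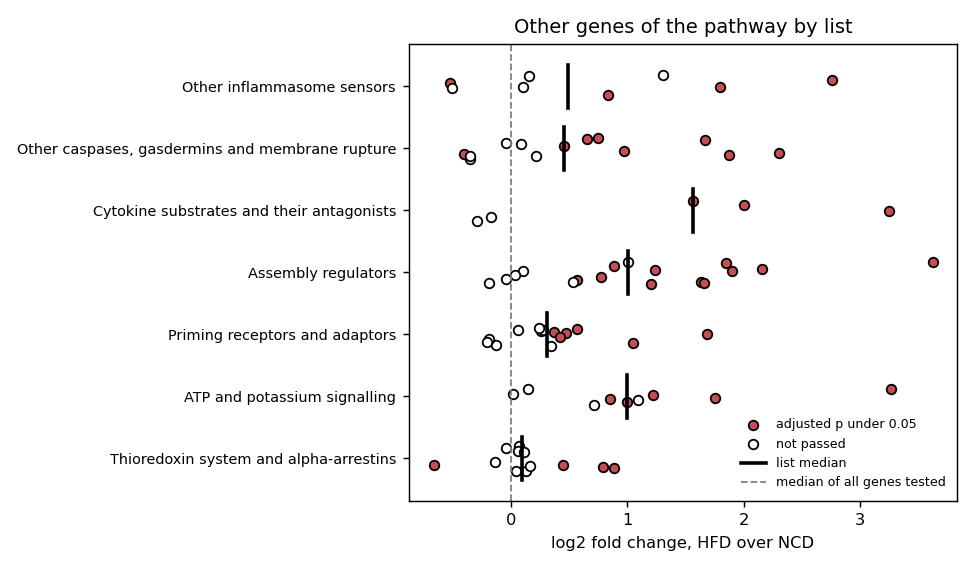
Log2 fold change, HFD over NCD, of the tested genes in 7 lists of the pathway; filled circles passed at an adjusted p under 0.05, thick bars are list medians and the dashed line is the median of all genes tested at 0.0026. The medians run from 0.0965 for the thioredoxin list to 1.57 for the cytokine list.

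The genes most like Nlrp3 over the 4 libraries were taken as those with the smallest Euclidean distance of log2 CPM centred on the gene mean, among 11967 protein-coding genes of at least 5 CPM. They were Zg16 at a distance of 0.128, Penk at 0.192 and Thy1 at 0.229. For Txnip they were Sned1 at 0.0395, Abcb1a at 0.0449 and Prdx6 at 0.0473. Within a distance of 0.25, Nlrp3 had 4 genes and Txnip 246. These distances describe 4 libraries in 2 diets and were not tested.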

How the data were processed

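The authors deposited whole-number counts per Ensembl gene, 1 table per library, for 2 HFD and 2 NCD libraries. The submitters' processing notes name HISAT, featureCounts 1.5.0, DESeq 1.8.3 and build GRCm38, without their settings, and the labels' protocols name a stranded KAPA kit. Neither the use of strand in counting nor the separation of macrophages is described in the sources used here. Symbols and exon lengths came from GENCODE M21 (GRCm38), in which 55240 of 55421 identifiers were found. Genes passing filterByExpr (minimum count 10) were scaled by TMM and tested in edgeR 4.0.16 (R 4.3.3) with the quasi-likelihood test for diet, without a replicate block, adjusted over all 21563 genes. The SE is the log2 change divided by the square root of F. Sums over marker lists use unscaled totals. Transcripts were compared with blastn 2.17.0.

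Low counts (6 to 102) fell on multiples of 4 more often than on their neighbours, by a factor of 1.52 to 1.57, so a count may not be 1 fragment and low genes are less precise than their counts give. Alternatives were DESeq2 size factors, DESeq2 1.42.0, limma-voom (limma 3.58.1), a replicate block, each library left out, no filter, a filter at 5 CPM on average, counts divided by 4, and library sizes that omit 20 endocrine, acinar or abundant genes. With a diet down to 1 library, that library is assumed to vary like the others. Members, lists and alternatives were chosen with earlier results of these data known, and the named genes are the members and genes of those lists.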

Additional observations from a re-analysis of the deposited data

How the results depend on the processing

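The rises of Nlrp3, Casp1, Casp4, Gsdmd and Txnip kept their direction and passed the test under all 12 alternatives run, with log2 changes of 2.91 to 3.38 for Nlrp3, 1.35 to 1.82 for Casp1, 1.28 to 1.65 for Casp4, 1.18 to 1.25 for Gsdmd and 1.25 to 1.305 for Txnip. Pycard did not pass under any of its 12 (adjusted p 0.119 to 0.530). Of the 9 genes, 5 to 6 were called higher when a library was left out, Aim2 and P2rx7 being the ones lost, and 7 under each other alternative. DESeq2 called 1 of the 9 genes lower, Nlrp1b. With a replicate block 7 of the 9 genes were higher, and 3252 genes in all were higher and 2583 lower. The block ended the calls of Nlrp10, Gsdme, Cgas and Csf1r (adjusted p 0.0549, 0.0905, 0.0581 and 0.05995) and of no other gene named with its own levels, and left 0 macrophage markers higher. The deviations of same-numbered libraries from their diet means had a correlation of 0.00211. With 2 libraries per diet both pairs give this same value, so it cannot decide whether the numbers mark a pairing. With 2 pairs the block leaves few degrees of freedom. Over all genes, 2015 to 2174 were lower with a library left out, against 3123 with all 4, the construction leaving fewer samples. The log2 change of Il18 ran from -0.41 to 0.0358 (without HFD replicate 2) and that of Nek7 from -0.0668 (without NCD replicate 2) to 1.56 with a library left out. The cause of these shifts was not tested. Depth limits Nlrp1b and Nlrp3 in NCD most, at 72 to 194 counts, and no molecular identifiers are named in the labels, so tests cover counting and library spread only.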

Other observations

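Ratios of TPM between genes of the same library do not depend on library size. They do depend on the annotated exon lengths, such as 3800 bases for Pycard, so how far a ratio lies from 1 is uncertain. The same lengths were used in each library, so they do not alter the change of a ratio between diets. Nlrp3 over Pycard, sensor over adaptor, was 0.669 and 1.03 in HFD and 0.0928 and 0.135 in NCD. Casp1 over Pycard was 2.96 and 3.29 in HFD and 1.38 and 1.13 in NCD. Casp4 over Casp1 was 0.563 and 0.574 in HFD and 0.598 and 0.636 in NCD, so these neighbours kept nearly the same proportion in each library. Aim2 over Nlrp3 was 1.31 and 0.652 in HFD and 3.93 and 3.72 in NCD.

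Each of the 11 tested macrophage markers was also taken alone in place of the list of 12. The difference of Nlrp3, HFD over NCD, then ran from 7.08-fold per count of Mertk to 17.2-fold per count of Itgax, that of Casp1 from 2.36-fold to 5.62-fold and that of Gsdmd from 1.82-fold to 4.36-fold, with the same markers at the ends. For Pycard it ran from 0.954-fold per count of Mertk to 2.27-fold per count of Itgax, so its direction depended on the marker. None of these ratios was tested.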
